A study of Rattus norvegicus with 6 samples.

Results

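The genes described here are 10 regulators of the integrated stress response, a signalling programme centred on the transcription factor ATF4 and its downstream partner CHOP. They are Atf4, Atf5, Ddit3, Trib3, Cebpb, Cebpg, Chac1, Sesn2, Ppp1r15a and Nupr1. They were selected by gene symbol: every probe set whose single symbol in the array's annotation is one of these names was used, which gave 14 of the 31042 probe sets tested and 10 of 14217 named genes. Trib3 had 3 probe sets, Cebpg and Sesn2 had 2 each, and the other 7 genes had 1. Where a gene needed a single value, the probe set with the highest average over the 6 arrays stood for it.

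Signals were measured with 6 single-colour Affymetrix arrays in cardiac myocytes of Wistar rats aged 1 to 2 days, with 2 arrays per group. The stretched cells had been plated for 36 h on a silicone membrane coated with collagen, kept 24 h without serum and then stretched biaxially to 112% for 24 h. The phenylephrine cells were given this agonist of the α1-adrenergic receptor at 50 µmol/l, and the control cells were untreated. The treatment text of the phenylephrine arrays also names endothelin-1 and angiotensin II as agents, while the titles name phenylephrine alone, which is how the group is called here. No source used here gives how long phenylephrine was applied, or on what surface the phenylephrine and control cells grew. All groups share the same method of cell preparation, in which a Percoll gradient separated myocytes from fibroblasts. RNA of several preparations was pooled before labelling, and no label states whether a group's arrays had cultures of their own. The spread behind every p-value is that between these arrays, and it may be technical.

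As background, several kinases that sense amino acid shortage, misfolded protein in the endoplasmic reticulum, heme shortage or viral RNA phosphorylate the translation factor eIF2. Translation then slows in general, while ATF4 protein is made more efficiently from mRNA that is already present. ATF4 is a basic leucine zipper factor that pairs with members of the C/EBP family and switches on genes for amino acid supply, for feedback and, through CHOP, for cell death under lasting stress. The arrays measure mRNA, so neither the phosphorylation of eIF2 nor the amount of ATF4 protein was observed.

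With stretch, 4 of the 10 genes rose against control, and with phenylephrine 4 of the 10 rose. Trib3, Chac1 and Ppp1r15a rose in each comparison, Sesn2 rose with stretch, and Atf5 rose with phenylephrine. With phenylephrine 0 of the 10 fell past the threshold, where 2.36% of all named genes did. A rise means an adjusted p under 0.05 in limma, with adjustment over all 31042 probe sets. In the same fit 0.457% of all named genes rose with stretch and 2.41% with phenylephrine. By probe set, 6 of 14 rose with stretch, where 0.306% of all probe sets did, and 6 of 14 rose with phenylephrine, where 1.73% did. The members were chosen with earlier results of these data known. Setting their counts beside such shares, here and below, is therefore no test of the members. Both comparisons use the same control arrays, so their values are given side by side and their likeness is not a separate result. The model has no term for the replicate number. With that term more of the 10 genes passed in each comparison, and more of all probe sets, as given in the closing section. The median log2 difference over the 10 genes was 0.75 for stretch and 0.44 for phenylephrine, beside 0.004 and 0.002 over all named genes. Fibroblast markers were also lower on the treated arrays, with a summed linear signal of 36080 to 37518 with stretch, 30955 to 32360 with phenylephrine and 43695 to 44532 in control. Fewer cells of a type and less RNA per cell cannot be told apart in such samples, and the part of these markers in the values of the 10 genes was not tested.

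Array by array, both stretch arrays lay above both control arrays for 10 of 10 genes, a pattern that 21.6% of all named genes showed. Both phenylephrine arrays lay above both control arrays for 7 of 10 genes, beside 22% of all named genes. Ddit3 and Cebpb lay lower on both phenylephrine arrays than on both control arrays, as 24.9% of all named genes did. Nupr1 was the gene whose phenylephrine and control arrays overlapped.

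**Figure D1:**
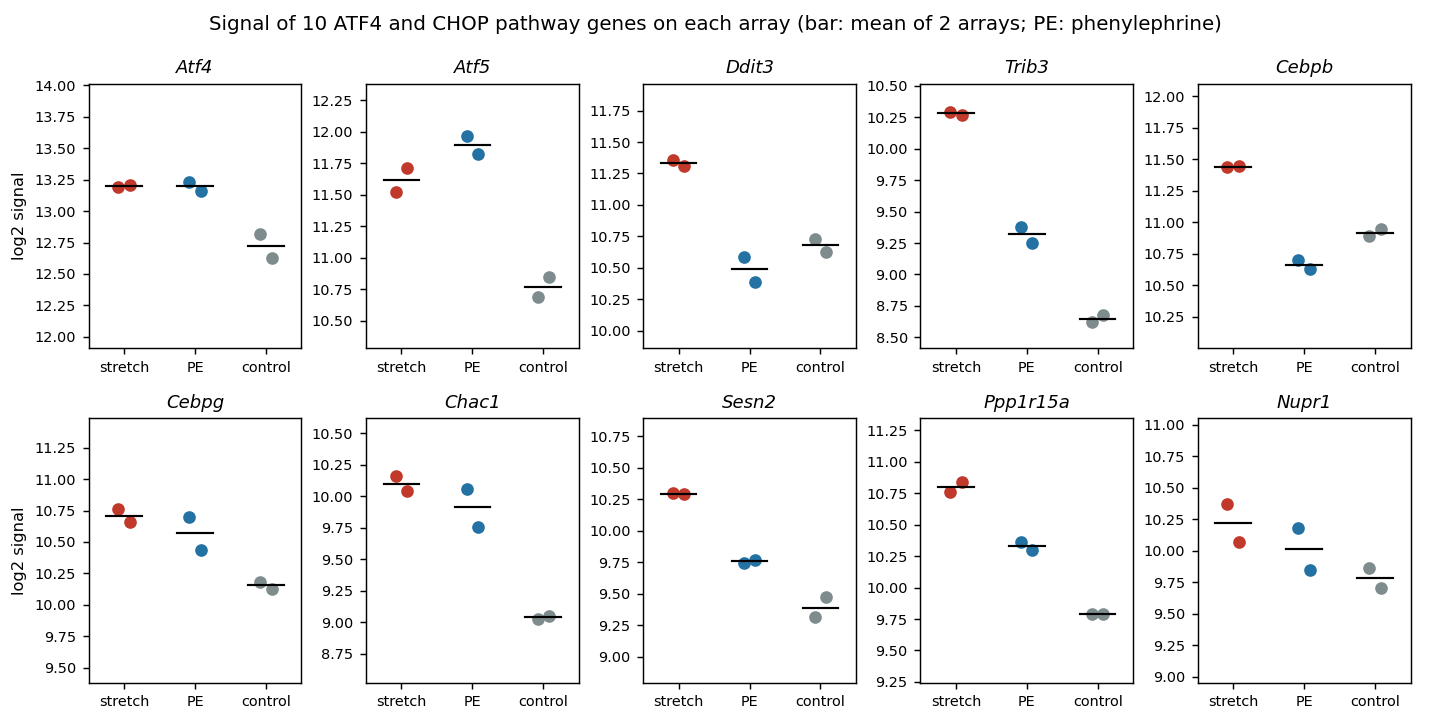
Each panel shows 1 gene by its brightest probe set, with the log2 signal on the vertical axis, a point for each array and a bar for the mean of 2 arrays; the panels have different positions on the axis and the same height in log2 units. All stretch points lie above the control points, while for Ddit3 and Cebpb the phenylephrine points lie below control.

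The promoters of 4 of these genes hold a motif that stress-responsive bZIP factors are known to bind. Trib3, Chac1 and Ppp1r15a, which rose with both stimuli, are among them, and so is Nupr1, which passed in no comparison. Atf5 and Sesn2, which rose with 1 stimulus each, had no match. Neither had Ddit3 and Cebpb, which passed only in the direct comparison of stretch with phenylephrine, nor Atf4 and Cebpg, which passed in none. The windows are those of RefSeq on build GRCr8, from 250 bases before to 50 bases after each annotated start, and all 10 genes had one. The composite C/EBP-ATF core was searched as TGATGNAA, the cyclic AMP response element as TGACGTCA and the endoplasmic reticulum stress element as CCAAT followed, 9 bases on, by CCACG, each on both strands. The composite core was found in 3 of 10 member windows and in 3.98% of 33469 windows of this length. The cyclic AMP response element was found in 1 of 10 and in 1.83%, and the stress element in 0 of 10 and in 0.0657%. No matches in these windows overlapped. The share of all windows that hold any of these motifs was not computed. Each stretch below is written 5′ to 3′ on the gene's own strand, with the match in capitals. A match describes letters only, and binding was not measured.
Trib3, chr3:161275534-161275584, minus strand, core on the reverse strand 21 bases before the start: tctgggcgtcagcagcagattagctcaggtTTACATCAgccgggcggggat
Chac1, chr3:126795934-126796001, plus strand, core on the reverse strand 167 bases before the start: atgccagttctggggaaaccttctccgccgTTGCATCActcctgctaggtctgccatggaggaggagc
Nupr1, chr1:190645919-190645986, minus strand, core on the reverse strand 55 bases before the start: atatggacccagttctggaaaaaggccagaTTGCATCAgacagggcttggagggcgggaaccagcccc
Ppp1r15a, chr1:105139625-105139692, minus strand, cyclic AMP response element 66 bases before the start: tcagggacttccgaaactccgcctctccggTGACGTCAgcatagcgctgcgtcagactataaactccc

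Among the transcription factors, Atf4 itself was a bright probe set on every array, with a control mean above 98.2% of all probe sets. Its log2 signal (probe set 1367624_at) was 13.19 and 13.21 on the stretch arrays, 13.23 and 13.16 on the phenylephrine arrays, and 12.82 and 12.63 on the control arrays. The treated arrays lay close together and above both controls. The difference from control was 0.48 ± 0.11 log2 (SE, n = 2 arrays per group here and below) with stretch, a 1.39-fold ratio with adjusted p = 0.216. With phenylephrine it was 0.47 ± 0.11 log2 (adjusted p = 0.0576), so neither passed the threshold. After quantile normalization of the arrays both did, with adjusted p = 0.0108 for stretch and 0.00467 for phenylephrine.

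Atf5 is a related bZIP factor whose mRNA is translated in the same stress-dependent way and which is linked to the mitochondrial unfolded protein response. Its log2 signal (probe set 1372601_at) was 11.97 and 11.82 on the phenylephrine arrays, against 10.69 and 10.85 on the control arrays. It rose 2.18-fold with phenylephrine (1.12 ± 0.13 log2; adjusted p = 0.00497). Without control replicate 1 the adjusted p was 0.0502, and the call held in the other 5 omissions of an array. On the stretch arrays it was 11.52 and 11.71, above both controls, and the difference of 0.85 ± 0.13 log2 missed the threshold at adjusted p = 0.0524. That difference passed after quantile normalization (adjusted p = 0.0192), among probe sets at or above 8.309 log2 on average (0.0399) and without the mean-variance trend (0.0361).

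Ddit3 encodes CHOP, a C/EBP family member induced downstream of ATF4. On the log2 scale its signal (probe set 1369590_a_at) was 11.36 and 11.31 with stretch, 10.59 and 10.39 with phenylephrine, and 10.73 and 10.63 in control. Stretch arrays were the highest and phenylephrine arrays the lowest, with no overlap between groups. Against control, the difference was 0.65 ± 0.12 log2 with stretch (adjusted p = 0.112) and -0.19 ± 0.12 log2 with phenylephrine (adjusted p = 0.504). Neither passed, though quantile normalization brought the stretch difference to adjusted p = 0.00577.

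Cebpb, a C/EBP factor active in stress, inflammation and metabolism and a known partner of ATF4, followed the same order of groups. Its probe set (1387087_at) had log2 signals of 11.44 and 11.45 with stretch, 10.70 and 10.63 with phenylephrine, and 10.89 and 10.95 in control. The 2 arrays of each group were within 0.1 log2 of each other. The difference from control was 0.52 ± 0.11 log2 with stretch (adjusted p = 0.163; 0.0437 without the mean-variance trend) and -0.26 ± 0.11 log2 with phenylephrine (adjusted p = 0.287). Neither passed the threshold in the model used here.

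Cebpg encodes a short C/EBP protein that lacks a classical activation domain and forms heterodimers with ATF4. By its brighter probe set (1372885_at) the log2 signal was 10.76 and 10.66 with stretch, 10.70 and 10.44 with phenylephrine, and 10.18 and 10.13 in control. All treated arrays were above both controls, by 0.55 ± 0.12 log2 for stretch (adjusted p = 0.217) and 0.41 ± 0.12 log2 for phenylephrine (adjusted p = 0.135). Neither passed, and both did after quantile normalization, with adjusted p = 0.0111 and 0.00609. Its other probe set (1371038_at) was dim, with a control mean above only 25.4% of all probe sets, and its groups overlapped on every side.

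Trib3 had the largest change with stretch among the 10 genes. It encodes a pseudokinase that is induced by ATF4 and CHOP and that binds ATF4 as a brake on the response. By its brightest probe set (1386321_s_at) the log2 signal was 10.29 and 10.27 with stretch, 9.38 and 9.25 with phenylephrine, and 8.62 and 8.68 in control. The 3 groups were stepped, with stretch highest and control lowest and no overlap. Trib3 rose 3.1-fold with stretch (1.63 ± 0.09 log2; adjusted p = 0.00074) and 1.59-fold with phenylephrine (0.67 ± 0.09 log2; adjusted p = 0.0104).

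All 3 Trib3 probe sets rose in each comparison, by 1.24 to 1.63 log2 with stretch and by 0.60 to 0.69 log2 with phenylephrine. The stretch call held for each of them when any 1 of the 6 arrays was left out, with adjusted p up to 0.0352. For 1386321_s_at the phenylephrine call was lost without control replicate 1 or control replicate 2, with adjusted p up to 0.114 and a difference between 0.605 and 0.735 log2 over all omissions. For 1370695_s_at the same 2 omissions ended it (adjusted p up to 0.142), and for 1370694_at omitting phenylephrine replicate 1 did so as well (adjusted p up to 0.144). Of the 3 probe sets, 2 carry the suffix that marks probes shared by several transcripts.

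Ppp1r15a encodes GADD34, the inducible subunit that directs a phosphatase to eIF2 and so ends the block on translation. Its probe set (1370174_at) had log2 signals of 10.76 and 10.84 with stretch, 10.36 and 10.30 with phenylephrine, and 9.79 and 9.79 in control. It showed the same steps as Trib3. It rose 2.01-fold with stretch (1.01 ± 0.10 log2; adjusted p = 0.00965) and 1.46-fold with phenylephrine (0.54 ± 0.10 log2; adjusted p = 0.032). Leaving out either stretch array or either control array ended both calls, with adjusted p up to 0.16 for stretch and 0.285 for phenylephrine. Over all omissions the difference was between 0.97 and 1.05 log2 for stretch and between 0.515 and 0.574 log2 for phenylephrine. In a fit of the phenylephrine and control arrays alone the phenylephrine difference had adjusted p = 0.0807.

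Chac1 encodes an enzyme that degrades glutathione and is a target of ATF4 and CHOP. Its log2 signal (probe set 1389573_at) was 10.16 and 10.04 with stretch, 10.06 and 9.76 with phenylephrine, and 9.03 and 9.05 in control. The treated groups overlapped with each other and lay well above control. Chac1 rose 2.09-fold with stretch (1.06 ± 0.12 log2; adjusted p = 0.0154) and 1.83-fold with phenylephrine (0.87 ± 0.12 log2; adjusted p = 0.0107). The stretch call was lost without either stretch array or either control array (adjusted p up to 0.199), and the phenylephrine call without either control array (adjusted p up to 0.0904).

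Sesn2, or sestrin 2, is a leucine-binding inhibitor of the growth kinase mTORC1 and a target of ATF4 and p53. By its brighter probe set (1391607_at) the log2 signal was 10.30 and 10.29 with stretch, 9.74 and 9.77 with phenylephrine, and 9.31 and 9.47 in control. The 3 groups were again stepped without overlap. It rose 1.88-fold with stretch (0.91 ± 0.10 log2; adjusted p = 0.0144), a call that leaving out either stretch array or either control array ended (adjusted p up to 0.241). With phenylephrine the difference of 0.37 ± 0.10 log2 did not pass (adjusted p = 0.11). The other Sesn2 probe set (1396901_at) was dim and had differences of 0.16 ± 0.08 log2 with stretch and 0.03 ± 0.08 log2 with phenylephrine, neither past the threshold.

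Nupr1 encodes a small chromatin-associated stress protein that is induced in ATF4-dependent programmes. On the log2 scale its signal (probe set 1367847_at) was 10.37 and 10.07 with stretch, 10.18 and 9.85 with phenylephrine, and 9.86 and 9.70 in control. The spread between the 2 treated arrays of a group was the widest among the brightest probe sets of the 10 genes. Differences from control were 0.44 ± 0.15 log2 with stretch (adjusted p = 0.676) and 0.23 ± 0.15 log2 with phenylephrine (adjusted p = 0.526), neither past the threshold.

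**Figure D2:**
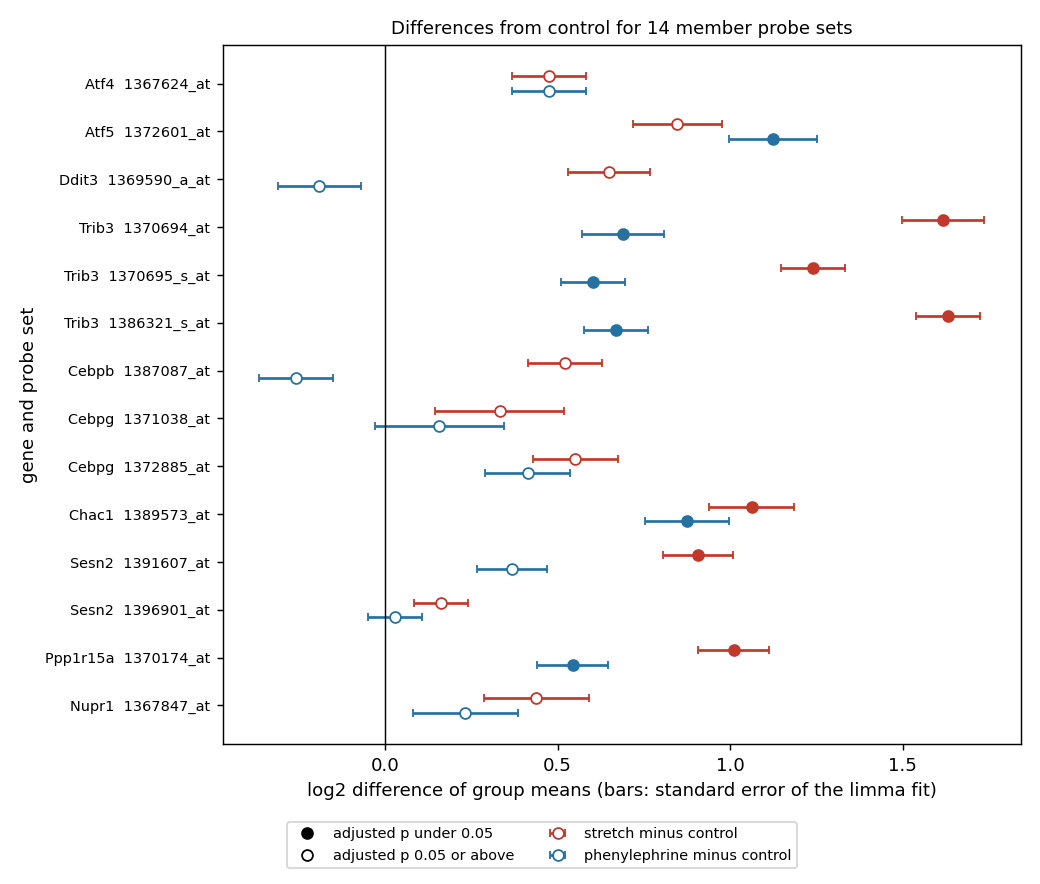
Log2 differences of group means from control are plotted on the horizontal axis for all 14 probe sets, in red for stretch and in blue for phenylephrine, with bars of 1 standard error of the limma fit and filled points for adjusted p under 0.05. The 3 Trib3 probe sets reach 1.24 to 1.63 log2 with stretch, and Ddit3 and Cebpb lie below 0 with phenylephrine.

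Set directly against phenylephrine, stretch gave higher signals for 3 of the 10 genes, Trib3, Ddit3 and Cebpb, and lower signals past the threshold for 0. Of all named genes 0.999% were higher and 0.837% lower in this comparison. By probe set 5 of 14 members were higher, beside 0.718% of all probe sets. Both stretch arrays lay above both phenylephrine arrays for 5 of 10 genes, beside 23.8% of all named genes. The comparison uses no control arrays except to estimate the spread.

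Trib3 was 1.95-fold higher with stretch than with phenylephrine (0.96 ± 0.09 log2; adjusted p = 0.00495), and without stretch replicate 1 this call was lost at adjusted p = 0.0613. The other Trib3 probe sets lost it without stretch replicate 1 or phenylephrine replicate 2 (1370694_at, adjusted p up to 0.0999) and in every omission but that of phenylephrine replicate 1 (1370695_s_at, adjusted p up to 0.189). Ddit3 was 1.79-fold higher (0.84 ± 0.12 log2; adjusted p = 0.0214). The Ddit3 call held when phenylephrine replicate 1 was left out (adjusted p = 0.0269) and was lost in the other 5 omissions, with adjusted p up to 0.189, and in a fit of these 2 groups alone (0.0586). Cebpb was 1.72-fold higher (0.78 ± 0.11 log2; adjusted p = 0.0191). Its call was lost when a stretch or control array was left out, with adjusted p up to 0.194, and in the fit of the 2 groups alone (0.0634). In all omissions the difference was between 0.74 and 0.94 log2 for Ddit3 and between 0.74 and 0.81 log2 for Cebpb.

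The other genes did not pass in the direct comparison. Sesn2 had 0.54 ± 0.10 log2 (95% interval 0.30 to 0.77; adjusted p = 0.0546) and Ppp1r15a 0.47 ± 0.10 log2 (0.23 to 0.70; adjusted p = 0.0891). Both passed without the mean-variance trend, with adjusted p = 0.0299 and 0.0307, and Sesn2 also among the brighter probe sets (0.0409). For Atf4 the difference was 0.001 log2, with an interval of the limma fit from -0.25 to 0.25. The interval was -0.10 to 0.47 log2 for Chac1, -0.15 to 0.42 for Cebpg and -0.15 to 0.56 for Nupr1. Atf5 was the gene with a difference below 0 (-0.28 log2, interval -0.58 to 0.02; adjusted p = 0.437).

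**Figure D3:**
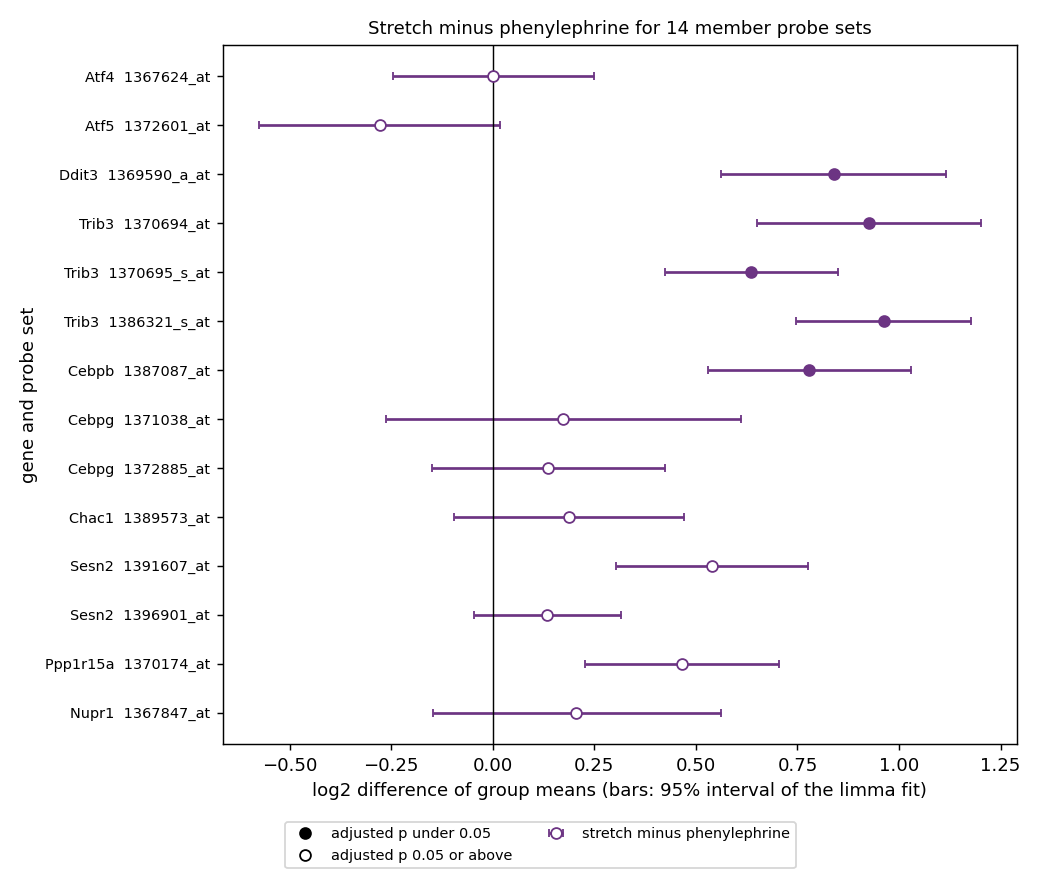
Stretch minus phenylephrine in log2 units is plotted on the horizontal axis for the 14 probe sets, with bars for the 95% interval of the limma fit and filled points for adjusted p under 0.05. Ddit3, Cebpb and the 3 Trib3 probe sets are filled, and Atf4 sits at 0.001 log2.

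The genes with the most similar course over the 6 arrays were sought for each of the 7 members that passed in at least 1 comparison, among 14207 other named genes. Likeness was the root mean square difference of log2 signals after each gene was centred on its own mean, so it describes these 6 arrays and carries no test. For Chac1 the closest was Slc7a1, a transporter of cationic amino acids, at 0.064 log2, followed by Ifrd1 at 0.084. For Sesn2 it was Slc7a5, the light chain of a leucine transporter, at 0.046, followed by the thioredoxin reductase gene Txnrd1 at 0.091. Trib3 was closest to the growth arrest gene Gadd45g (0.098) and the sulfiredoxin gene Srxn1 (0.152).

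Ddit3 and Cebpb had a common neighbour, the kinetochore gene Zwilch, at 0.062 and 0.058 log2. The second neighbour of Ddit3 was the chemokine gene Ccl20 (0.064), and the closest to Cebpb was the condensin gene Smc4 (0.05). Atf5, the member with its highest signal under phenylephrine, lay nearest to Dnajb5, a cochaperone gene (0.089), and the tubulin gene Tubb6 (0.115). Ppp1r15a lay nearest to the actinin gene Actn1 (0.077) and to Txnrd1 (0.103).

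Genes around these regulators were read from 8 lists, with 114 genes measured in all. The lists too were chosen with earlier results of these data known. Of all named genes 0.457% rose and 0.0633% fell with stretch, and 2.41% rose and 2.36% fell with phenylephrine. List counts with stretch and with phenylephrine thus stand beside different shares. Of 19 measured enzymes known as ATF4 targets, 6 rose with stretch and 11 with phenylephrine, and 0 fell in either. The list medians were 0.66 and 0.60 log2. Asns, the asparagine synthetase gene, rose by 1.63 ± 0.15 log2 with stretch (adjusted p = 0.00555) and by 1.93 ± 0.15 with phenylephrine (adjusted p = 0.00147). Mthfd2, a mitochondrial folate enzyme, rose by 1.21 ± 0.11 and 1.70 ± 0.11. The tRNA synthetase genes Wars1 (0.83 ± 0.12) and Gars1 (0.80 ± 0.11) also rose with stretch, and the serine synthesis gene Phgdh (1.33 ± 0.12) and the folate enzyme gene Mthfd1l (1.04 ± 0.15) with phenylephrine.

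Of 10 transporters of amino acids, 3 rose with each stimulus, and the medians were 0.35 log2 for stretch and 0.37 for phenylephrine. Slc7a1 rose by 1.00 ± 0.11 log2 with stretch and 0.89 ± 0.11 with phenylephrine, and Slc1a4, a carrier of neutral amino acids, by 0.91 ± 0.13 and 0.67 ± 0.13. Slc7a5 rose with stretch (0.84 ± 0.11) and Slc7a3 with phenylephrine (0.49 ± 0.07). Of 13 signalling genes that ATF4 can induce, the secreted cytokine gene Gdf15 (2.83 ± 0.10) and the bZIP gene Atf3 (1.05 ± 0.11) rose with stretch. In the same list Eif4ebp1, an inhibitor of cap-dependent translation (0.83 ± 0.12), and Ddit4, an inhibitor of mTORC1 (0.69 ± 0.10), rose with phenylephrine, and Txnip, which binds thioredoxin, fell (-0.72 ± 0.10).

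Of 16 eIF2 kinase and eIF2 machinery genes, with stretch 0 passed in limma and the unadjusted p was under 0.05 for 2, and the median was 0.07 log2, with the exchange factor subunit gene Eif2b3 at 0.70 ± 0.11. With phenylephrine Eif2s2, which encodes eIF2 beta, rose by 0.67 ± 0.13 (adjusted p = 0.035), a call that every omission of an array ended, with adjusted p up to 0.261. Of 18 genes of the IRE1 and ATF6 arms, the other branches of the unfolded protein response, limma called 0 with stretch, and the unadjusted p was under 0.05 for 0. With phenylephrine limma called 0 of the 18, and the unadjusted p was under 0.05 for 4. The largest differences there were those of Dnajb9 with stretch (0.27 ± 0.19) and Hyou1 with phenylephrine (-0.42 ± 0.11). The share of all named genes with an unadjusted p under 0.05 was not computed. Such counts, here and below, cannot be read against it.

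Of 20 other C/EBP, ATF and partner bZIP genes, 2 rose with stretch, Fosl1 (1.21 ± 0.08) and Maff (0.87 ± 0.08). With phenylephrine 3 rose, Fos (1.64 ± 0.21), Mafk (0.87 ± 0.12) and Maff (0.76 ± 0.08). Among 11 mitochondrial protein quality genes limma called 0 with either stimulus, with 2 under an unadjusted p of 0.05 for stretch and 4 for phenylephrine. Their largest differences were those of the chaperone gene Hspa9 with stretch (0.47 ± 0.11) and Dele1, which relays mitochondrial stress, with phenylephrine (-0.54 ± 0.17). Of 7 measured death genes linked to CHOP, limma called 0 with stretch, and the unadjusted p was under 0.05 for 1. With phenylephrine the BH3 protein gene Bcl2l11 fell (-0.73 ± 0.14 log2) and the kinase gene Dapk3 rose (0.56 ± 0.11). Bcl2l11 had -0.68 ± 0.14 log2 with stretch (adjusted p = 0.156).

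In total 13 of the 114 list genes rose and 0 fell with stretch, and 21 rose and 2 fell with phenylephrine. The shares of all named genes were 0.457% and 0.0633% with stretch, and 2.41% and 2.36% with phenylephrine. When any 1 array was left out, the calls of Gdf15 and Fosl1 held for stretch, and those of Asns, Phgdh, Mthfd2 and Maff for phenylephrine. The other 11 stretch calls were lost in at least 1 omission, with adjusted p up to 0.565: 11 without stretch replicate 1, 7 without stretch replicate 2, 9 without control replicate 1 and 10 without control replicate 2. Of the phenylephrine calls 19 were lost in at least 1 omission, with adjusted p up to 0.291. These were 19 without control replicate 2, 15 without control replicate 1, 7 without each stretch array, 5 without phenylephrine replicate 1 and 2 without phenylephrine replicate 2.

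**Figure D4:**
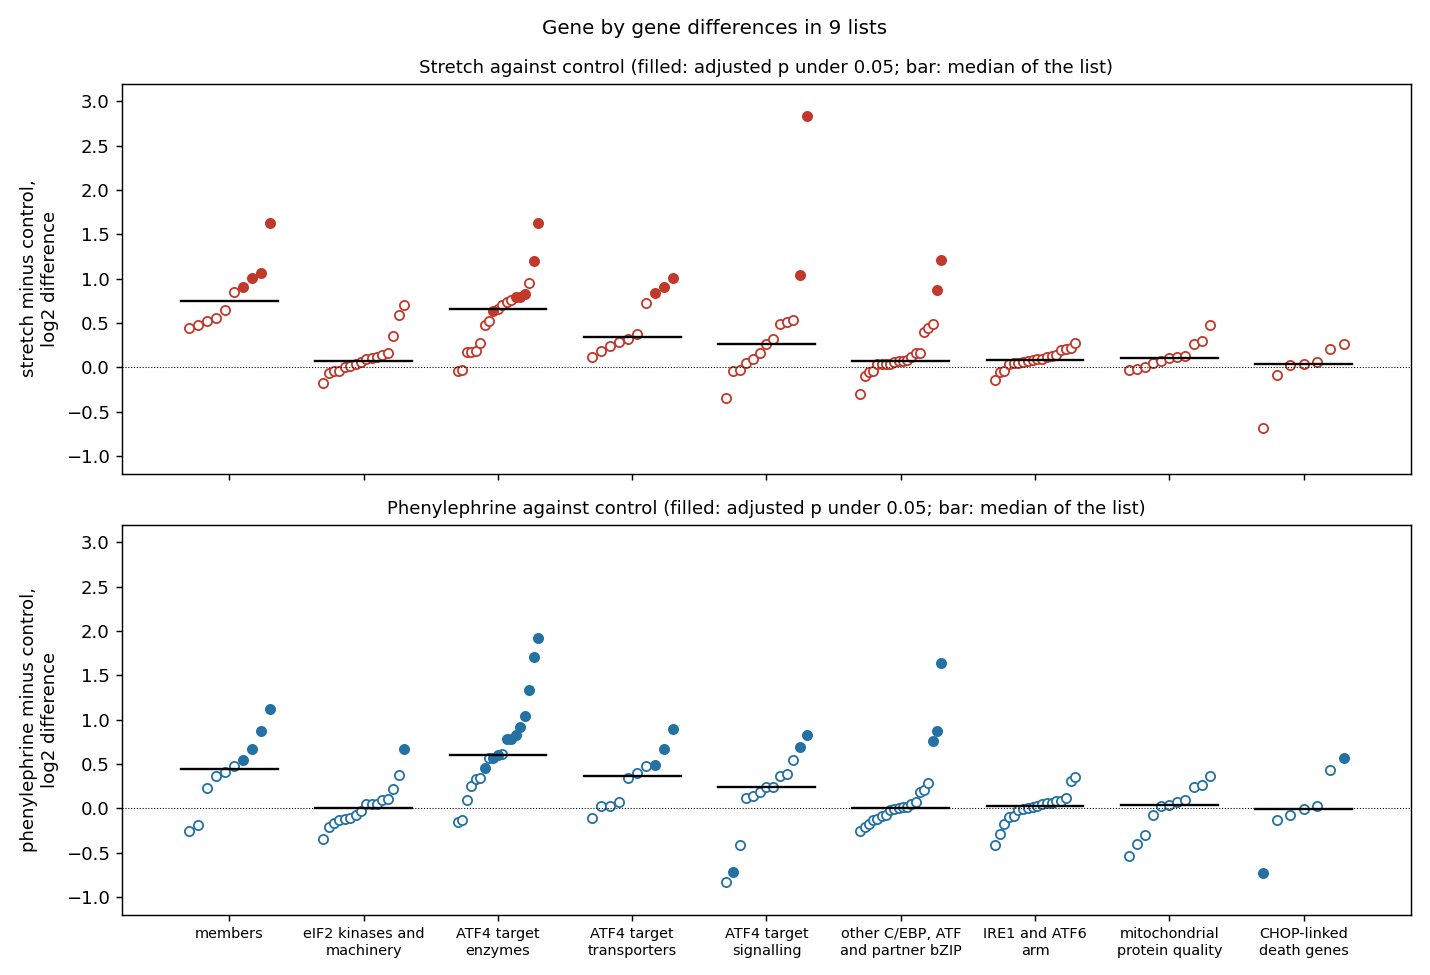
Each point is 1 gene, with its log2 difference from control on the vertical axis (stretch in the upper panel, phenylephrine in the lower), sorted within 9 lists, filled where adjusted p was under 0.05; bars are list medians. The members and the ATF4 target enzymes have medians of 0.75 and 0.66 log2 with stretch and of 0.44 and 0.60 with phenylephrine.

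Markers of the labelled cells and of other cell types were read from 5 lists. Their counts stand beside 0.457% of all named genes that rose and 0.0633% that fell with stretch. With phenylephrine these shares were 2.41% and 2.36%. All 10 cardiac myocyte markers had control means above 98.9% or more of probe sets. They summed to 184557 to 216325 linear signal units with stretch, 214809 to 240456 with phenylephrine and 182555 to 197901 in control, and Nppa, the atrial natriuretic peptide gene, rose with phenylephrine (1.05 ± 0.12 log2). Of 10 fibroblast markers, 10 had a difference below 0 with each stimulus; limma called 0 with stretch, where the unadjusted p was under 0.05 for 4, and 4 fell with phenylephrine. The 7 endothelial markers summed to 3304 to 3331, 2696 to 2931 and 3591 to 3684 linear signal units in stretched, phenylephrine and control cells, with 0 falls with stretch and 2 with phenylephrine. The 7 smooth muscle and pericyte markers summed to 15855 to 17514, 18175 to 19742 and 13877 to 14266 in the same groups, with 0 rises with stretch and 2 with phenylephrine. These 7 include Des, the desmin gene. Their control means ran from 8.27 to 13.42 log2, so the brightest gene weighs most in the sums. The list medians were 0.02 log2 with stretch and 0.07 with phenylephrine, with 4 of 7 genes above 0 in each. The 8 macrophage and leukocyte markers summed to 8924 to 9097, 7024 to 7526 and 9085 to 9379, with 0 falls with stretch and 1 with phenylephrine. The fibroblast markers that fell were Dpt, Col3a1, Postn and Pdgfra, the endothelial ones Kdr and Emcn and the macrophage one Cd68, and the pericyte genes Cspg4 and Mcam rose. The calls of Nppa, Dpt and Cspg4 held in all omissions of an array, while those of the other 7 were lost without control replicate 2, among other omissions, with adjusted p up to 0.336. The lowest control mean stood above 68.6% of probe sets for fibroblast markers, 27.2% for endothelial, 48.7% for smooth muscle and 9.6% for macrophage markers. The lowest value on any array was 5.8 log2, so the signals do not show which dim markers were expressed. The part of these shifts in the values of the 10 genes was not tested either.

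The 6 arrays had medians between 8.30 and 8.33 log2 and correlated at 0.984 to 0.995 with each other across probe sets, which are not independent replicates. Phenylephrine replicate 2 had the lowest hybridization controls, with a median of 9.04 log2 beside 9.68 to 9.95 on the other arrays. Without it the phenylephrine minus control difference was 1.201 log2 for Atf5 in place of 1.125, and 1.026 for Chac1 in place of 0.875. It was 0.735 for Trib3 (1386321_s_at) in place of 0.67, and 0.574 for Ppp1r15a in place of 0.544. Stretch minus phenylephrine was 0.897 log2 for Trib3 in place of 0.962, 0.739 for Ddit3 in place of 0.839, and 0.745 for Cebpb in place of 0.779. The part of this array in the values was not tested.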

How the data were processed

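The authors deposited 1 value for each probe set on each array, taken as log2 because values ran from 5.8 to 15.2. How they summarized and normalized the probe sets is not given in the sources used here. Per the labels' protocols, pooled RNA was amplified by in vitro transcription. The number of arrays limits the precision.

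Of 31099 probe sets, 57 array controls were left out. Symbols came from the platform annotation of GEO. Of the tested probe sets 20826 had 1 symbol, 436 several and 9780 none, and 20758 matched the RefSeq table of GRCr8 by Entrez identifier. Group means of the 6 arrays were estimated together in limma 3.58.1 under R 4.3.3 (lmFit, eBayes with mean-variance trend; 3 residual and 4.8 prior degrees of freedom). The two-sided p-values were adjusted over 31042 probe sets by the Benjamini-Hochberg method, with a threshold of 0.05. The script was tested on simulated data with independent noise on each array. These had no effect of the replicate number, so the test does not cover arrays that are related. The deposited scale was kept. Array medians differed by 0.038 log2, but the interquartile range was 1.92 and 1.80 log2 on the stretch arrays, 1.89 and 1.70 on the phenylephrine arrays and 1.91 and 1.82 on the control arrays, narrower on replicate 2 in each group.

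The members, gene lists and rules were chosen with earlier results of these data known. All members were named. From each other list up to 4 genes past the threshold with the largest differences were named per comparison with control, or else the single largest, as a value. Alternatives were quantile normalization, brighter probe sets (mean at or above 8.309 log2), a term for the replicate number, fits of 2 groups, no variance trend, the mean of a gene's probe sets and omission of each array.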

Additional observations from a re-analysis of the deposited data

How the results depend on the processing

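The direction of every called member difference was kept under each alternative run. Leaving out 1 array in turn gave 3 to 6 changed member probe sets for stretch against control (26 to 112 of all probe sets), 0 to 6 for phenylephrine against control (189 to 1249) and 0 to 5 for stretch against phenylephrine (51 to 473). The share of changed probe sets that were higher moved with the phenylephrine arrays. It was 28.9% without phenylephrine replicate 1 and 71% without phenylephrine replicate 2 for phenylephrine against control, and 76.3% and 28% for stretch against phenylephrine. An omission that leaves a group with 1 array assumes that it varies like the other groups. Quantile normalization gave 10 member probe sets and 386 in all for stretch against control (72.5% higher in place of 88.8%), 2790 for phenylephrine against control and 1527 for stretch against phenylephrine. Fits of only the 2 groups gave 661 in all for phenylephrine against control, and 2 member probe sets and 230 in all for stretch against phenylephrine. With the replicate number as a block, 13 member probe sets and 1028 in all changed for stretch against control (69.9% higher), 9 and 5384 for phenylephrine against control (40% higher in place of 48.2%), and 7 and 3734 for stretch against phenylephrine (65.4% higher in place of 54%). By gene, 10 of the 10 then passed for stretch against control in place of 4, 7 for phenylephrine against control in place of 4 and 5 for stretch against phenylephrine in place of 3. The share of all named genes that passed with the block was not computed, so these gene counts cannot be read against it. The genes added were Atf4 (adjusted p = 0.0281), Atf5 (0.00035), Ddit3 (0.000597), Cebpb (0.00321), Cebpg (0.00187) and Nupr1 (0.0059) for stretch, and Atf4 (0.00787), Cebpg (0.00357) and Sesn2 (0.00435) for phenylephrine. For stretch against phenylephrine they were Sesn2 (limma adjusted p = 0.000481) and Ppp1r15a (0.00177). The deviations of replicate 1 from the group mean correlated at 0.487 to 0.673 between groups, a hint from the data that arrays of 1 number may be related. No label states a pairing and a group has 2 numbers only, so the model without the block was kept. The cause of these shifts was not tested.

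Differences that changed sign were near 0 and none was called. For phenylephrine against control, the omissions gave -0.072 (without control replicate 2) to 0.389 log2 for Cebpg (1371038_at), which also had -0.02 without phenylephrine replicate 1, and -0.046 (without phenylephrine replicate 1) to 0.102 for Sesn2 (1396901_at), which had -0.029 without control replicate 1. For stretch against phenylephrine they gave -0.031 (without stretch replicate 1) to 0.378 for Cebpg (1371038_at), with -0.005 without phenylephrine replicate 2, and -0.033 (without phenylephrine replicate 2) to 0.035 for Atf4, with -0.007 without stretch replicate 2.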
